A study of Homo sapiens with 6 samples.

Results

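Serpins are a superfamily of proteins most of which block serine proteases, and tissue kallikreins are a family of secreted serine proteases. This account covers the genes of both families in SUM159 oncospheres. Members were the genes whose only symbol in the array annotation was SERPIN followed by a clade letter from A to I and a number, or KLK followed by a number. That gave 44 of 19775 genes with a single symbol, of which 30 were serpins and 14 were kallikreins, and they had 81 probe sets between them. Where a gene had several probe sets, the one brightest on average across all arrays was used, a choice that did not use the comparison of the groups. SERPINB2, SERPINB6, SERPINA11, SERPINE3 and KLK9 had no probe set under the rule in the annotation used, and were not analysed here.

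SUM159 is an established human breast cancer cell line, and oncospheres are floating clusters that form when cells cannot attach. Cells were infected with lentivirus made from pLVX-puro, which carried either no insert (control, 3 arrays) or human SCGB3A1, a small secreted protein (SCGB3A1, 3 arrays), so all 6 samples carried the vector and its puromycin resistance. Both groups were kept in 2 µg/ml puromycin for 7 days and then in suspension for 5 days in a HuMEC-based medium, from 12500 cells/ml, before total RNA was read on Affymetrix U133 Plus 2.0 arrays to find the genes that respond to SCGB3A1. The arrays are called biological replicates in the labels. Whether each replicate came from a separate infection is not given in the sources used here, so the p-values speak of the scatter among these 6 samples, which may be technical.

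As background, an inhibitory serpin offers a reactive loop as bait, and the protease that cuts it stays joined to the serpin in a deformed complex that receptors of the LRP family clear. Some serpins do not inhibit proteases and act as hormone carriers or chaperones. The kallikreins lie side by side in a single gene cluster, are secreted as inactive precursors and in skin activate each other in a cascade that sheds the outer cell layer. In breast epithelium the families are known for SERPINB5 (maspin), a basal cell gene often lost in carcinoma, and for epidermal kallikreins such as KLK5, KLK6, KLK7 and KLK10.

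Levels below are log2 values after robust multiarray average (RMA), and each difference is the mean of the SCGB3A1 arrays minus the mean of the control arrays on that scale. Over all 54613 probe sets tested, 10 passed an adjusted p of 0.05 in limma (0.0183%), and among genes with 1 probe set each 6 of 19775 passed (0.0303%). The arrays correlated at 0.989 to 0.996 across probe sets, and control replicate 2 had the lowest range, 0.989 to 0.993. The 8 mesenchymal and basal markers read a mean log2 level of 11.57 to 11.66 over the arrays, with KRT5, KRT14, VIM and CD44 among them. At an unadjusted p under 0.05, 2 of the 8 were higher and 2 lower, beside 3.93% and 2.89% of all genes. The basal keratins KRT5 and KRT14 were each higher by 0.56 (1.48-fold, adjusted p = 0.166 and 0.29), more than any serpin or kallikrein, and ZEB1 (−0.25, adjusted p = 0.717) and EGFR (−0.24, adjusted p = 0.759; named after its values were seen) were lower. Their part in the results for SERPINB5 and the epidermal kallikreins was not tested. In contrast, 4 of 6 luminal markers lay at or under the median probe set level of 6.91. The means of the luminal, haematopoietic (3 measured) and endothelial (4) markers lay between 6.73 and 7.15, and 0 of these 13 markers had an unadjusted limma p under 0.05. Some single markers read higher, with PECAM1 at 8.27, GATA3 at 8.11 and PTPRC at 7.75 over the 6 arrays. At or under the median level lay 1 of 3 haematopoietic and 3 of 4 endothelial markers. The probe set of SCGB3A1 itself read 6.91 ± 0.13 (SD, n = 3) in control and 6.74 ± 0.16 in SCGB3A1 samples, a log2 difference of −0.17 (SE 0.096, limma adjusted p = 0.835). Dropping SCGB3A1 replicate 1 gave −0.097, dropping control replicate 3 gave −0.10 and dropping SCGB3A1 replicate 2 gave −0.26, with an unadjusted limma p of 0.023. It was not higher in the SCGB3A1 samples, and it may lie outside the inserted cDNA, in which case it checks nothing about the labels. Whether the insert was expressed in these samples, and whether the labels are right, was not tested here. Directions below therefore rest on the labels alone.

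No serpin or kallikrein changed at the adjusted threshold. In SCGB3A1 oncospheres KLK7, a chymotrypsin-like protease of skin shedding, read 1.24-fold higher, SERPINF1 (pigment epithelium-derived factor, a matrix-binding serpin that is not an inhibitor) 1.18-fold higher, SERPINA1 (alpha-1 antitrypsin, the inhibitor of neutrophil elastase) 1.16-fold higher and SERPINI1 (neuroserpin, an inhibitor of tissue plasminogen activator) 1.15-fold higher. Those 4 had an unadjusted p under 0.05, but the lowest adjusted p of any member was 0.717. In bulk RNA, a change in every cell and a change in the share of cells that express a gene cannot be told apart. At that unadjusted threshold 4 of 44 members (9.09%) were higher, beside 3.93% of all genes, and 0 were lower, beside 2.89% of all genes. The further thresholds by which the study listed its response genes (a log2 difference beyond 0.5, p under 0.05 and adjusted p under 0.25) were met by 0 members and by 0.0607% of all genes.

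The differences were small throughout, from −0.14 for KLK3 to 0.31 for KLK7. The 95% intervals of the 44 members ran from −0.36 at the lowest bound to 0.53 at the highest, or from 1.29-fold lower to 1.44-fold higher, and 40 of them covered 0. These are intervals of single genes, and RMA draws weak signals towards a common floor, which makes differences of weakly read genes too small. The spread was ordinary for this table: the median within-group SD was 0.101 for the members and 0.097 for all genes. SERPINB1 was the steadiest, with a range of 0.14 over the 6 arrays, while KLK8 spanned 0.62 and KLK14 0.59.

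**Figure D1:**
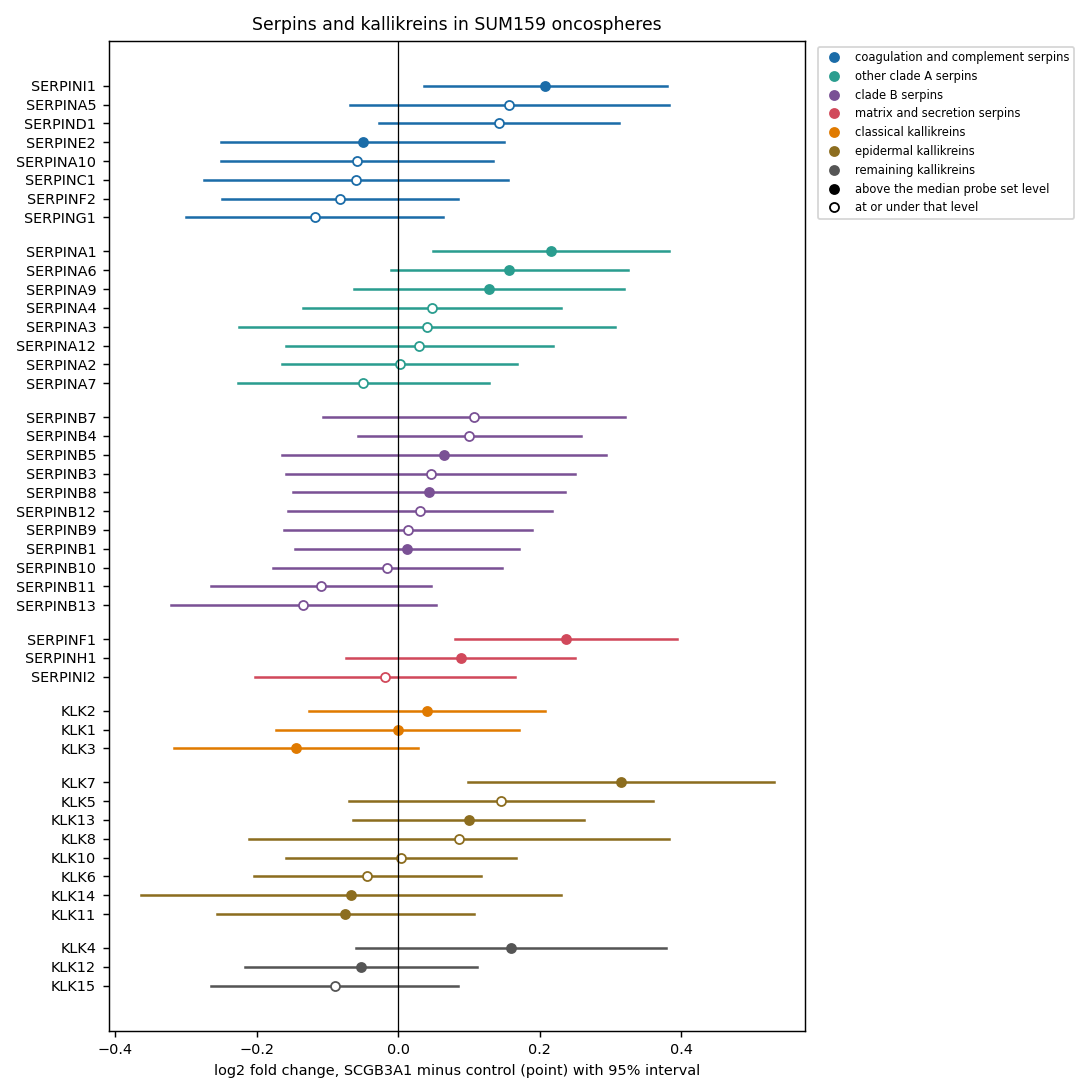
Log2 difference (horizontal axis, SCGB3A1 minus control, point) with its 95% limma interval (line) for the 44 members, grouped and coloured by role. Filled points are genes above the median probe set level and open points are genes at or under it. The intervals of KLK7, SERPINF1, SERPINA1 and SERPINI1 lie to the right of 0 and the other 40 cover it.

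Start site sequences of 3 of those 4 members follow, with no window listed for SERPINF1. They are shown as a description of members with an unadjusted p under 0.05, and their part in the differences was not tested. Each runs 5′ to 3′ on the gene's own strand, from 250 bases before to 50 bases after a RefSeq start (GRCh38.p14), in lower case, with capitals for 3 motifs sought on either strand, namely the TATA box spelled TATAAA, the GC box spelled GGGCGG and the AP-1 motif spelled TGANTCA. None of the matches shown overlap. SERPINI1 has 1 listed start, SERPINA1 has 2 and KLK7 has 3; where there are several, the one printed is the entry that comes first in the RefSeq table, whose order is not that of position.
SERPINI1, chr3:167735471-167735770, plus strand: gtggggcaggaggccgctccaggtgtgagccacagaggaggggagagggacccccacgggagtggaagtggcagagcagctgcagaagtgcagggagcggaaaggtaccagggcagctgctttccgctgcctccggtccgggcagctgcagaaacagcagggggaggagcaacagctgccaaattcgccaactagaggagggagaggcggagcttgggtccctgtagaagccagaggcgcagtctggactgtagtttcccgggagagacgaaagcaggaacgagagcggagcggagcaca
SERPINA1, chr14:94390586-94390885, minus strand: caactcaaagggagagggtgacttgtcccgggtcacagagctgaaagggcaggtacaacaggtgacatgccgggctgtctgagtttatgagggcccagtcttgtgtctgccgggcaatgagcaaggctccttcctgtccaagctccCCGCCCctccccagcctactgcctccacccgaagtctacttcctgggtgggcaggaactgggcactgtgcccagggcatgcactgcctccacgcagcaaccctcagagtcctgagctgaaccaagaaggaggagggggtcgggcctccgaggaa
KLK7, chr19:50983868-50984167, minus strand: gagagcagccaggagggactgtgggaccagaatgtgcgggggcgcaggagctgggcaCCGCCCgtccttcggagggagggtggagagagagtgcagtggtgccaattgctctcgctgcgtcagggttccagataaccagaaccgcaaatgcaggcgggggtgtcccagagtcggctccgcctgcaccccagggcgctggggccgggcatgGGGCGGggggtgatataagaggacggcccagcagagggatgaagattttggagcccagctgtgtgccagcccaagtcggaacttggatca
The SERPINI1 window holds no match, that of SERPINA1 holds 1 GC box and that of KLK7 holds 2. All are GC-rich, at 64%, 61.7% and 65%.

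Across the families, RefSeq windows were listed for 35 of the 44 members. The kallikreins (21 windows of 12 genes) had a median GC content of 61%, beside 58.67% over all 35116 windows, and the serpins (33 windows of 23 genes) 49.33%. The AP-1 motif stood in 7 of 33 serpin windows (21.2%) and in 0 of 21 kallikrein windows, beside 7.71% of all windows. Counted by gene, 6 of 23 serpins held it (26.1%), 5 of them in clade B, beside 9.37% of all genes with a window. A TATA box stood in 27.3% of serpin windows, 14.3% of kallikrein windows and 11.5% of all, and a GC box in 27.3%, 52.4% and 45%. These are matches of letters only.

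Among the serpins of coagulation, fibrinolysis and complement, 3 of 8 read higher and 5 lower, with a median difference of −0.054, beside 0.011 over all genes. SERPINI1 was the one with an unadjusted p under 0.05. Control arrays read it at 9.26, 9.16 and 9.02, and SCGB3A1 arrays at 9.32, 9.37 and 9.36. The groups did not overlap, the SCGB3A1 arrays lay close together (SD 0.03, n = 3), and control replicate 3 was the lowest. The difference was 0.21 (SE 0.079, adjusted p = 0.782), and without control replicate 3 it was 0.14 with an unadjusted p of 0.111. Without SCGB3A1 replicate 2 its unadjusted p was 0.058. SERPINE2 (protease nexin-1), which inhibits thrombin and the plasminogen activators at cell surfaces, read 12.73, 12.56 and 12.57 in control and 12.68, 12.64 and 12.38 in SCGB3A1 samples. The groups overlapped, with a difference of −0.051 (SE 0.092, adjusted p = 0.951). Its sign turned to 0.042 without SCGB3A1 replicate 3 and to 0.0049 without control replicate 1.

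The remaining 6 of that group lay at or under the median level. SERPIND1 (heparin cofactor II, a thrombin inhibitor) differed by 0.14, and its SCGB3A1 arrays, at 6.36, 6.29 and 6.29, were all above the control arrays, at 6.24, 6.23 and 6.04. SERPINA5 (protein C inhibitor) differed by 0.16, with overlap. SERPING1 (the complement C1 inhibitor) stood at −0.12, SERPINF2 (the plasmin inhibitor) at −0.082, SERPINC1 (antithrombin) at −0.060 and SERPINA10 (the protein Z-dependent inhibitor) at −0.058, all with overlapping groups.

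Of the other 8 clade A serpins 7 read higher and 1 lower, with a median of 0.044. SERPINA1 read 8.21, 8.07 and 8.12 on control arrays and 8.44, 8.35 and 8.27 on SCGB3A1 arrays. The groups did not overlap, with SCGB3A1 replicate 1 the highest, and the difference was 0.22 (SE 0.077, adjusted p = 0.759). Leaving out that array gave 0.17 with an unadjusted p of 0.066. A second of its 4 probe sets gave 0.18. The dimmer pair, the ones without a suffix for possible cross-hybridization, gave 0.041 (unadjusted p = 0.713) and 0.077. SERPINA6 (corticosteroid-binding globulin) also had groups that did not overlap, with control arrays at 7.22, 7.25 and 7.14, SCGB3A1 arrays at 7.46, 7.27 and 7.35 and a difference of 0.16. Its unadjusted p was 0.064. SERPINA9, a serpin of germinal centre B cells, differed by 0.13. SERPINA4 (kallistatin, an inhibitor of tissue kallikrein) differed by 0.047, SERPINA3 (antichymotrypsin) by 0.040, SERPINA12 (vaspin) by 0.030, SERPINA2 by 0.0019 and SERPINA7 (thyroxine-binding globulin) by −0.049. SERPINA2 is a close copy of SERPINA1, and whether their probe sets read each other's transcript was not tested.

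Clade B serpins lack a signal peptide and act mostly inside cells. Of 11 measured, 8 read higher and 3 lower, with a median of 0.030 and 0 at an unadjusted p under 0.05. SERPINB5 read 9.68, 10.10 and 9.89 in control and 9.87, 9.89 and 10.10 in SCGB3A1 samples. The SD among its control arrays (0.21, n = 3) exceeded the difference of 0.065 (SE 0.105, adjusted p = 0.948). Its other probe set gave −0.053, and the difference turned to −0.038 without control replicate 1 and to −0.0098 without SCGB3A1 replicate 3. SERPINB11 differed by −0.11, with control arrays at 6.29, 6.37 and 6.28 all above SCGB3A1 arrays at 6.22, 6.25 and 6.15. SERPINB13 (hurpin, a keratinocyte serpin) differed by −0.13 and SERPINB10 by −0.016. SERPINB7 (megsin) differed by 0.11 and SERPINB8 by 0.044. The squamous cell carcinoma antigens SERPINB4 and SERPINB3, near-identical inhibitors of cathepsins and chymotrypsin-like proteases, differed by 0.10 and 0.046, and reads of one by the probes of the other were not tested. SERPINB12 differed by 0.030, SERPINB9 (the granzyme B inhibitor) by 0.013 and SERPINB1 (an inhibitor of neutrophil elastase) by 0.012.

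The serpins of matrix and secretion held the smallest p of any member. SERPINF1 read 9.87, 9.85 and 9.80 on control arrays and 10.09, 10.13 and 10.0002 on SCGB3A1 arrays. Each SCGB3A1 array lay above each control array, and the control arrays were close together (SD 0.04, n = 3). The difference was 0.24 (SE 0.072, 95% interval 0.08 to 0.39, unadjusted p = 0.0064, adjusted p = 0.717). SERPINH1, the chaperone that holds procollagen in the endoplasmic reticulum, read 12.28, 12.31 and 12.26 in control and 12.33, 12.31 and 12.48 in SCGB3A1 samples. The groups overlapped and SCGB3A1 replicate 3 was the highest, with a difference of 0.088 (SE 0.074, adjusted p = 0.887). SERPINI2, a serpin first described in pancreas, differed by −0.018.

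**Figure D2:**
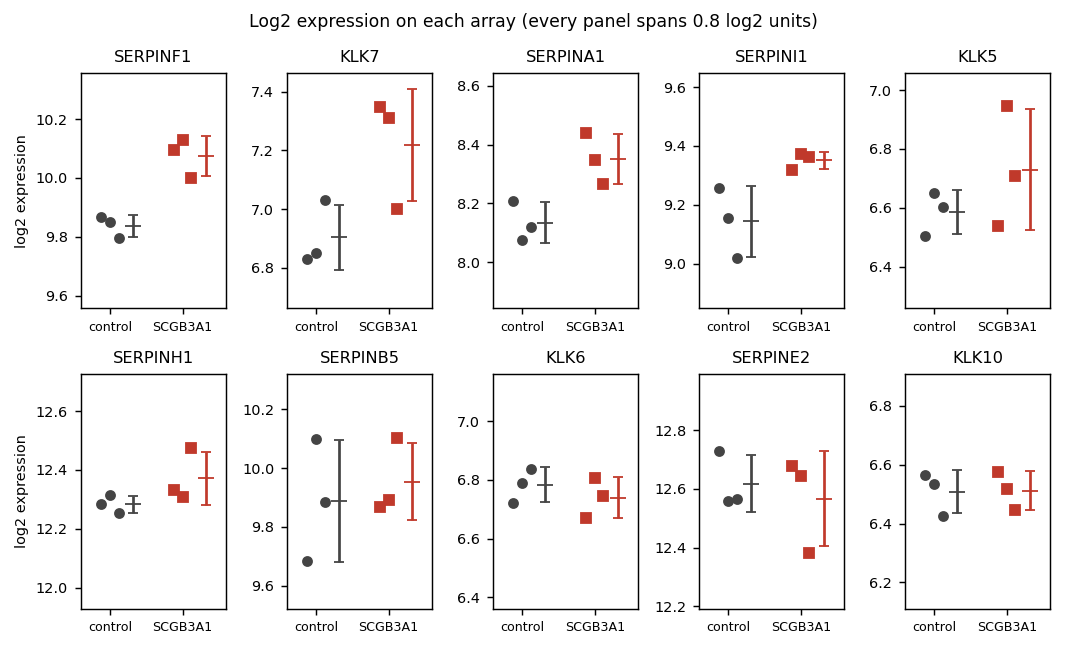
Log2 level on each array (vertical axis) for the 10 members given in full, control as dark circles and SCGB3A1 as red squares, with the mean and SD of 3 arrays beside each group. Every panel spans the same 0.8 log2 units, so heights can be compared, and only SERPINF1, SERPINA1 and SERPINI1 show groups that do not overlap.

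The kallikreins as a family were centred near 0, with 7 higher, 7 lower and a median of 0.0013, which ran from −0.026 to 0.038 as each array was left out. Of the 8 epidermal kallikreins 5 read higher and 3 lower. KLK7 read 6.83, 6.85 and 7.03 on control arrays and 7.35, 7.31 and 7.00 on SCGB3A1 arrays. SCGB3A1 replicate 3 lay inside the control range, so the groups overlapped although the difference was the largest of any member, 0.31 (SE 0.099, 95% interval 0.10 to 0.53, unadjusted p = 0.0080, adjusted p = 0.717). The probe set used read 7.06 on average over the 6 arrays, close to the median probe set level of 6.91. The other probe set of KLK7 gave 0.044 (unadjusted p = 0.676). KLK5, the trypsin-like protease that activates KLK7, read 6.50, 6.65 and 6.60 in control and 6.54, 6.95 and 6.71 in SCGB3A1 samples. SCGB3A1 replicate 2 was the highest and replicate 1 lay inside the control range, with a difference of 0.15 (SE 0.099, adjusted p = 0.861). It was 0.037 without SCGB3A1 replicate 2 and 0.24 without SCGB3A1 replicate 1, where its unadjusted p was 0.029.

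KLK6, a trypsin-like protease also made in brain, read 6.72, 6.79 and 6.84 in control and 6.67, 6.81 and 6.74 in SCGB3A1 samples. The difference was −0.044 (SE 0.074, adjusted p = 0.948). KLK10 read 6.56, 6.53 and 6.43 in control and 6.57, 6.52 and 6.44 in SCGB3A1 samples. Its difference was 0.0037 (SE 0.075, adjusted p = 0.996), with a 95% interval of −0.16 to 0.17. The groups of both genes overlapped and both genes lay under the median level, where fold changes are compressed. KLK13 differed by 0.099, KLK8 (neuropsin) by 0.085, KLK14 by −0.067 and KLK11 by −0.075, with overlap in each.

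Of the classical kallikreins, KLK3 (prostate-specific antigen) differed by −0.14, with control arrays at 9.06, 9.19 and 8.94 and SCGB3A1 arrays at 8.91, 8.90 and 8.94. The groups did not overlap, but control replicate 3 and SCGB3A1 replicate 3 were equal to the digits given. The probe set used carries a cross-hybridization suffix and read 8.99 on average. The 2 other KLK3 probe sets read 6.72 and 6.50, under the median level, and gave 0.0098 and 0.081. The level of KLK3 itself is therefore uncertain. KLK2, its close copy, differed by 0.040 and KLK1, the kallikrein that releases kinins, by −0.0011. Of the remaining kallikreins KLK4, an enzyme of enamel maturation, differed by 0.16, KLK12 by −0.053 and KLK15 by −0.090.

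Over all members 27 differences were positive and 17 negative, with a median of 0.030, beside 0.011 for all genes (10728 positive, 9047 negative). The serpins had 20 positive and 10 negative and a median of 0.035, which was 0.0079 without control replicate 1 and 0.058 without SCGB3A1 replicate 2. Groups did not overlap, with SCGB3A1 higher, in 5 members (11.4%), namely SERPINA1, SERPINA6, SERPIND1, SERPINF1 and SERPINI1, beside 7.09% of all genes. They did not overlap with SCGB3A1 lower in 2 (4.55%), KLK3 and SERPINB11, beside 5.24%. SCGB3A1 replicate 1 was the highest of the 6 arrays for 13 of the 44 members and control replicate 3 the lowest for 12.

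**Figure D3:**
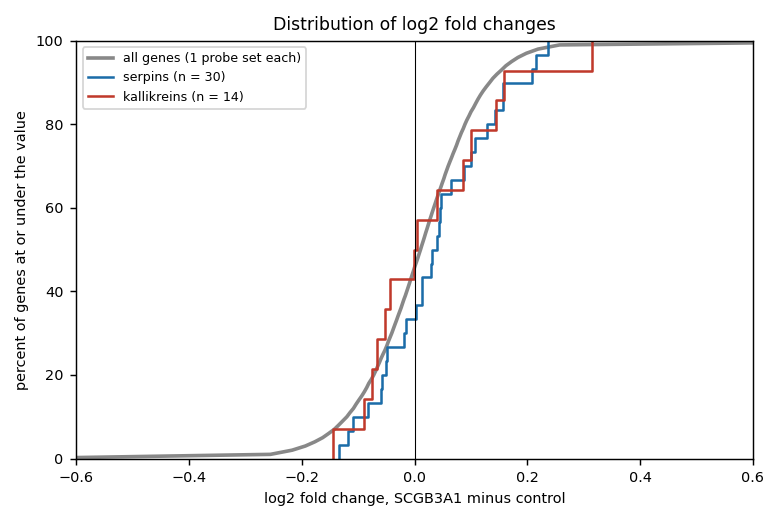
Percent of genes (vertical axis) at or under each log2 difference (horizontal axis, SCGB3A1 minus control) for all 19775 genes with 1 probe set each (grey, drawn through their percentiles), the 30 serpins (blue) and the 14 kallikreins (red). The serpin median is 0.035, the kallikrein median 0.0013 and the median of all genes 0.011.

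Much of both families was read weakly. At or under the median probe set level lay 25 of 44 members (56.8%), beside 36% of all genes, and 0 of these 25 had an unadjusted p under 0.05, beside 2.49% higher and 2.05% lower among all genes at or under it. Above it lay 19, with a median difference of 0.065, and 4 of them were higher at that threshold, beside 4.74% of all genes above the median level. KLK7, among these 4, read 7.06 on average, close to that level. The table gives no detection calls, so a gene under the median level cannot be called absent here.

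Probe sets of the same gene often disagreed. Of the 18 members with more than 1 probe set, 12 had probe sets with differences of both signs: KLK2, KLK3, KLK4, KLK8, KLK10, KLK12, KLK15, SERPINB1, SERPINB5, SERPINB9, SERPINB13 and SERPINC1. KLK4 went furthest, with 0.16, 0.13 and 0.12 on 3 probe sets, −0.0075 on another and −0.23 on the fifth, whose unadjusted p was 0.021. Among the 6 probe sets of SERPINB13, the one used gave −0.13 and the other 5 gave 0.015 to 0.076. The 4 of SERPINB1 gave 0.012, −0.021, −0.12 and 0.076. Over all 81 probe sets of the members 6 had an unadjusted p under 0.05, 5 higher (beside 3.09% of all probe sets) and 1 lower (beside 3.10%).

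**Figure D4:**
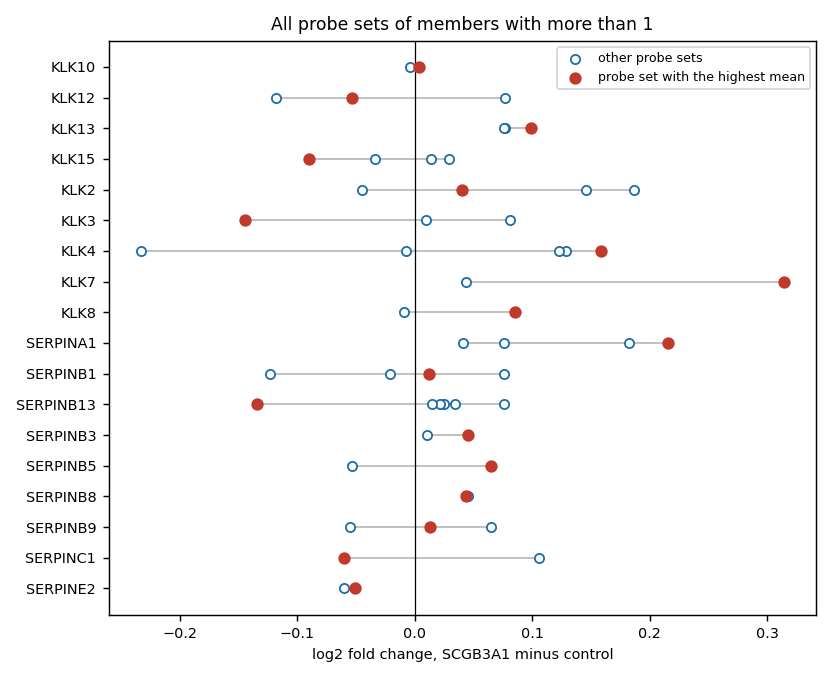
Log2 difference (horizontal axis, SCGB3A1 minus control) of every probe set for the 18 members with more than 1, the probe set used in red and the others in blue. The points lie on both sides of 0 in 12 of the 18 genes, and the span is widest for KLK4, from −0.23 to 0.16.

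Position along the chromosome was compared through the order of genes in the RefSeq annotation, counting members with at most 3 genes between them as neighbours. Of 43 members placed, 37 lay in 6 clusters. The clade A cluster from SERPINA10 to SERPINA3 had 7 of 8 members higher (median 0.088), the clade B cluster from SERPINB5 to SERPINB8 6 of 9 (0.044) and the kallikrein cluster from KLK1 to KLK14 7 of 14 (0.0013). SERPINF2 and SERPINF1, which are neighbours, had opposite signs (−0.082 and 0.24), as had SERPINI2 and SERPINI1 (−0.018 and 0.21). SERPINB1 and SERPINB9 both stood near 0.013.

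Partners of the families were read from lists of proteases, receptors and inhibitors, and 0 genes of any of these lists passed the adjusted threshold. At an unadjusted p under 0.05, 3.93% of all genes were higher and 2.89% lower. The counts below were not tested against these shares, and a single gene is a large part of lists this short. Among 19 plasminogen and coagulation genes, 0 were higher and 2 lower at an unadjusted p under 0.05: TFPI2, a Kunitz inhibitor of plasmin and tissue factor complexes, at −0.27 (adjusted p = 0.737) and PLAUR, the urokinase receptor, at −0.19 (adjusted p = 0.782). All 3 protease-activated receptors measured read lower, and F2RL2 was at −0.17 (adjusted p = 0.784). F2R, the thrombin receptor, was named after its values were seen: it read 11.64, 12.52 and 11.70 in control and 11.29, 11.48 and 11.89 in SCGB3A1 samples, a difference of −0.40 with an unadjusted p of 0.070, with control replicate 2 the highest. Of 18 proteases that serpins bind, C1S, the complement protease blocked by SERPING1, was higher at 0.19 (adjusted p = 0.782), and 0 of 14 membrane serine proteases and 0 of 8 skin substrates of kallikreins had an unadjusted p under 0.05.

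Inhibitors outside the serpin family held the lowest p of these lists. CSTA (cystatin A, an inhibitor of cathepsins in epidermis) read 8.67, 8.60 and 8.77 in control and 8.97, 9.06 and 8.94 in SCGB3A1 samples. The groups did not overlap, with a difference of 0.31 (SE 0.076, adjusted p = 0.537). SPINT2, the Kunitz inhibitor of hepsin and matriptase, stood at 0.23 (adjusted p = 0.775) and WFDC2, a whey acidic protein-type secreted protein, at −0.21 (adjusted p = 0.759). At an unadjusted p under 0.05, 2 of 13 were thus higher (15.4%) and 1 lower (7.69%), beside 3.93% and 2.89% of all genes. Of 7 receptors that take up serpin complexes, LRP1B was lower at −0.30 (adjusted p = 0.71). Of 12 partners of SERPINH1 in collagen folding, FKBP10 (0.21, adjusted p = 0.77) and PLOD1 (0.22, adjusted p = 0.782) were higher and 0 lower at that threshold.

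Leaving out each array in turn kept every member short of the adjusted threshold. KLK7 and SERPINF1 had an unadjusted p under 0.05 in all 6 of these fits, SERPINA1 in 5 and SERPINI1 in 4. KLK7 was lowest, at 0.25, without SCGB3A1 replicate 1 and highest, at 0.42, when SCGB3A1 replicate 3 was dropped. SERPINF1 ran from 0.21 to 0.27. The sign held in all 6 fits for 23 of the 44 members, 13 positive and 10 negative. Another 7 members reached that threshold in 1 fit each. Of these 6 were higher: SERPINA9 (0.22) and KLK8 (0.25) without control replicate 2, KLK5 (0.24) without SCGB3A1 replicate 1, SERPINA5 (0.26) and SERPINA6 (0.20) without SCGB3A1 replicate 2, and KLK4 (0.25) without SCGB3A1 replicate 3. KLK3 was lower, at −0.20, without control replicate 3. Each gene had 6 fits in which to reach that threshold, and the share of all genes that did so is not given here. KLK5, KLK8 and SERPINA5 lay at or under the median level.

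**Figure D5:**
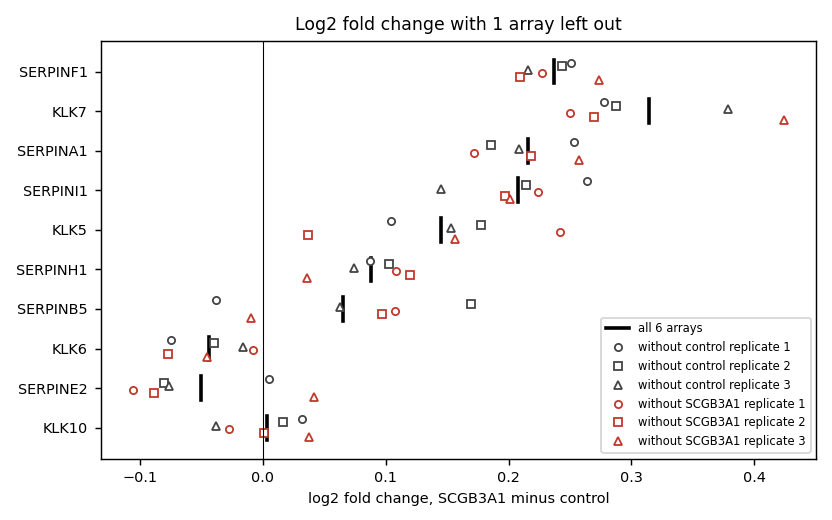
Log2 difference (horizontal axis, SCGB3A1 minus control) of the 10 members given in full, with all 6 arrays (black bar) and with each array left out in turn (symbols, dark for a control array and red for an SCGB3A1 array). The symbols of KLK7 run from 0.25 to 0.42, and those of SERPINB5, SERPINE2 and KLK10 fall on both sides of 0.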

How the data were processed

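Total RNA (100 ng per sample) of SUM159 oncospheres was hybridized to Affymetrix U133 Plus 2.0 arrays, 3 with empty vector and 3 with SCGB3A1, grouped by their titles. The authors normalized the scanner files by RMA, and the deposited values are log2 expression per probe set, from 5.66 to 14.66. RMA makes the arrays share 1 distribution, so a change in total RNA per cell cannot be seen. Depth does not apply to arrays; their number limits the precision. Of 54675 probe sets, 62 manufacturer controls were set aside. The platform annotation gave a single symbol to 41091 tested probe sets, several to 1801 and none to 11721; 2 probe sets that name a member beside another gene were not used. Symbols were set against RefSeq (GRCh38.p14), which changed 0 and did not hold 54.

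Groups were compared with limma (version 3.58.1, R 4.3.3; lmFit and eBayes, two-sided), after the empirical Bayes test of the study's methods, with Benjamini-Hochberg adjustment over all 54613 probe sets. The script was tested on simulated data. All p-values are from this fit, and "unadjusted" marks those without that adjustment. Intervals are 95% from the moderated t distribution. Of 44 probe sets used, 14 carry a suffix (_s, _x or _a) for probes that may match several transcripts, of the same gene or of another. Sets with such a suffix are called cross-hybridizing here, though whether they read other genes was not tested.

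Every member is named. Members with an unadjusted p under 0.05 or a log2 difference of 0.3 or more, and a fixed set of SERPINE2, SERPINB5, SERPINH1, KLK5, KLK6, KLK7 and KLK10 (SERPINB2 was in that set and was not analysed here), are given with every array. From each other list, members with an unadjusted p under 0.05 are named, at most 3. The members and lists were chosen with earlier results of these data known. Replicate numbers were not used to pair the samples in the main fit. Deviations of same-numbered arrays from their group means correlated at 0.145, −0.144 and −0.087, and those of control replicate 2 and SCGB3A1 replicate 3 at 0.249. With 3 arrays per group, such correlations cannot exclude a pairing. The fit was repeated after renewed quantile normalization or median centring, with a variance trend, robust variances, array weights or the replicate number as a block, with every array dropped in turn, after removal of dim or of cross-hybridizing probe sets, on each gene's mean probe set and at an adjusted p of 0.1.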

Additional observations from a re-analysis of the deposited data

How the results depend on the processing

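The count of members past the adjusted threshold was 0 in limma under each alternative run, and 3 to 6 members were higher at an unadjusted p under 0.05. The share of all genes past that unadjusted threshold is given for the main fit alone. The count over all probe sets, 10, became 19 with an intensity trend, 16 with array weights, 6 without dim probe sets, 5 without cross-hybridizing ones and 1 to 6 as each array was left out. With the replicate number as a block it was 4, while 0 members passed and 4 had an unadjusted p under 0.05, as without the block. Members lower at an unadjusted p under 0.05 were 0 to 1 as each array was left out. The serpin median, 0.035, ran from 0.0079 to 0.058 as each array was left out and was 0.108 among serpins above the median level. The kallikrein median, 0.0013, became 0.048 without cross-hybridizing probe sets. As each array was left out, SERPINB5 ran from −0.038 to 0.169, SERPINE2 from −0.105 to 0.042 and KLK10 from −0.038 to 0.037, and KLK10 was −0.0040 without cross-hybridizing probe sets and −0.00016 as the mean of its probe sets. Without cross-hybridizing probe sets SERPINA1 moved from 0.22 to 0.041 (unadjusted p = 0.708). The SERPINA1 probe set then used was also dimmer, at 6.70 on average beside 8.24, and the part of either in the move was not tested. As the mean of their probe sets SERPINA1 was 0.13 (unadjusted p = 0.051) and KLK7 0.18 (unadjusted p = 0.079). Of 145 values of the 10 members given in full under alternatives, 137 kept their sign and 8 reversed; since none passed the adjusted threshold, this tally speaks of sign alone. Filters leave fewer genes, 33 members without cross-hybridizing and 19 without dim probe sets, and leaving out an array leaves fewer samples; for the other moves the cause was not tested.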
